A study of Mus musculus with 8 samples.

Results

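The genes described here are 42 known targets of the transcription factor ATF4, taken by gene symbol. The list covers amino acid synthesis, amino acid transport, tRNA charging and stress genes, and was chosen with earlier results of these data known. All 42 were among the 29955 gene names listed for each library. RNA-seq was carried out on LSK cells (Lin- Sca1+ Kit+), which hold hematopoietic stem cells (HSCs) and multipotent progenitors, and on LK cells (labelled Lin- Kit+, and described as Sca1- in the paper), which hold mainly committed myeloid progenitors, sorted from mouse bone marrow. There were 8 libraries, 2 from each population in WT mice and 2 from each in Ripk3-/- mice, which makes 4 groups. Ripk3 is a kinase of necroptosis, and the Ripk3-KO mice lack it in every tissue. Every library is labelled with the strain background CD57BL6/J, no other allele is labelled, and no age is given in the labels. The labels state that the mice were untreated, whereas the paper describes this experiment in mice of both genotypes a month after the last of several low doses of X-rays, so that the exposure shared by all 4 groups is uncertain. Nothing in the labels says that the 2 libraries of a group came from separate mice, and the p-values then measure only the spread between libraries, which may be technical.

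ATF4 is the main transcription factor of the integrated stress response (ISR). Kinases that sense amino acid shortage, unfolded protein in the endoplasmic reticulum (ER), double-stranded RNA or mitochondrial and heme stress phosphorylate the initiation factor eIF2α, which lowers general protein synthesis while the ATF4 message is translated more. ATF4 then pairs with other bZIP factors, binds C/EBP-ATF response elements, and activates genes that make, import and charge amino acids and, under lasting stress, genes that promote cell death. In HSCs the pathway is known for holding protein synthesis low and for protecting the stem cell pool. ATF4 is controlled largely at translation, so that its mRNA level and its activity can differ.

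The C/EBP-ATF response element was searched for in RefSeq promoters (GRCm38.p6, 250 bases before to 50 bases after the annotated start, both strands), because this short element is the known link between ATF4 and its targets. The element was searched as TGATGCAA and, more loosely, as TGATGNAA, which includes every TGATGCAA. Promoters were found for 35 of the 42 members. TGATGCAA was present in 11 of the 35 (31.4%), against 1.03% of 27025 genes with a promoter in the table, and TGATGNAA in 14 of the 35 (40%), against 4.51% of those genes. The members were listed as ATF4 targets to begin with, so these shares describe the list. The windows below are those of 8 of the members whose levels differed between LSK and LK cells in at least one genotype, with the element in capitals (TTGCATCA, TTTCATCA and TTACATCA are matches on the opposite strand), and each is written 5′ to 3′ on the strand of its gene.
Asns at chr6:7693214-7693243, minus strand: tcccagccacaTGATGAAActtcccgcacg
Gars at chr6:55037960-55037989, plus strand: tggctgcgctaTTTCATCAtgcaccgggcg
Tars at chr15:11399655-11399684, minus strand: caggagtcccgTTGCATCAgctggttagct
Iars at chr13:49682126-49682155, plus strand: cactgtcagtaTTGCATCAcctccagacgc
Yars at chr4:129189895-129189924, plus strand: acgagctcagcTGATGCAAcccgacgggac
Nupr1 at chr7:126625562-126625591, minus strand: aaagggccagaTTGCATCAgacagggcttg
Trib3 at chr2:152344028-152344057, minus strand: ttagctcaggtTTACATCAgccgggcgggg
Vldlr at chr19:27216809-27216838, plus strand: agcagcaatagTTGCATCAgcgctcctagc
The first 5 windows belong to members that were lower in LSK than in LK cells of both genotypes, and the last 3 to members that were higher, Trib3 in Ripk3-/- cells alone. Slc7a11, the cystine importer, had a pair of matches that face each other, and its window is shown for that arrangement.
Slc7a11 at chr3:50443651-50443680, minus strand: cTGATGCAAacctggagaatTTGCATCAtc
Matches whose windows are not shown include those of Pycr1, Slc1a4, Chac1 and Herpud1. No promoter in the table was matched to Cth, Slc7a5, Slc1a5, Nars, Wars, Lars or Cars. The coordinates are those of the RefSeq table, whereas the submitters' processing notes name mm9, and no coordinate of the deposited files was used. For the windows shown, the bases after the start were found in a GENCODE M21 transcript of the gene, except for Gars and Trib3. A match is a stretch of letters and was not tested as a binding site.

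The deposited values, headed FPKM, were whole reads divided by one TMM factor per library, with no division by gene length. Such TMM-scaled CPM values (counts scaled to library size, separately in LSK and LK) are termed signal below, and because gene length was not taken into account they allow no comparison of levels between genes. The libraries held 9782166 to 16280811 reads, and 3 reads, the floor used below, were worth 0.186 to 0.311 signal. These floors cover counting error only. Ripk3, the targeted gene, was at 162 and 168 signal in the WT LSK pair, 3.38 and 1.08 in the knockout LSK pair, 144 and 149.7 in the WT LK pair and 16.2 and 10.6 in the knockout LK pair. Ly6a (Sca1) ran from 140.6 to 236.9 signal in LSK and from 0.124 to 4.12 in LK libraries, and Kit from 223 to 464 over all libraries. The WT libraries held Xist and the Ripk3-/- libraries held Y-linked transcripts, so that genotype and sex cannot be told apart in any comparison of genotypes.

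In both genotypes, most targets that make or charge amino acids were lower in LSK than in LK cells, whereas Vldlr, Gdf15 and Nupr1 were higher. For this comparison the reads of all 8 libraries were scaled together by TMM, and levels are given as joint CPM. In WT, 20 members were lower and 3 higher in LSK cells of 39 tested, at an adjusted p under 0.05 from limma, which is 59% of the members beside 23.9% of all 15950 genes tested (14.8% lower and 9.16% higher). In Ripk3-/- mice, 20 were lower and 4 higher of 40 tested (60%), beside 20.2% of all 15237 genes (12.2% lower and 7.95% higher). The median log2 fold change of the members, LSK over LK, was -0.67 in WT and -0.82 in Ripk3-/- mice, and that of all genes tested 0.08 and 0.00. The calls were shared for the most part, with 18 members lower and 3 higher in both genotypes, 2 called in WT alone, 3 in Ripk3-/- alone, and 0 called in opposite directions. The LSK libraries lay above both LK libraries for 9 members in WT (beside 32.8% of all genes) and 7 in Ripk3-/- mice (27.5%), and below both for 24 (31.2%) and 27 (30.1%). A member called in one genotype alone is not thereby shown to differ between genotypes. In these bulk libraries fewer cells of a type and less RNA per cell cannot be told apart. The sort itself separated progenitor types, as the summed signal of 7 myeloid progenitor markers was 5750 to 8846 in LSK and 51070 to 74130 in LK libraries, with 0 of the 7 markers at 0 in any library, and their part in the differences was not tested.

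**Figure D1:**
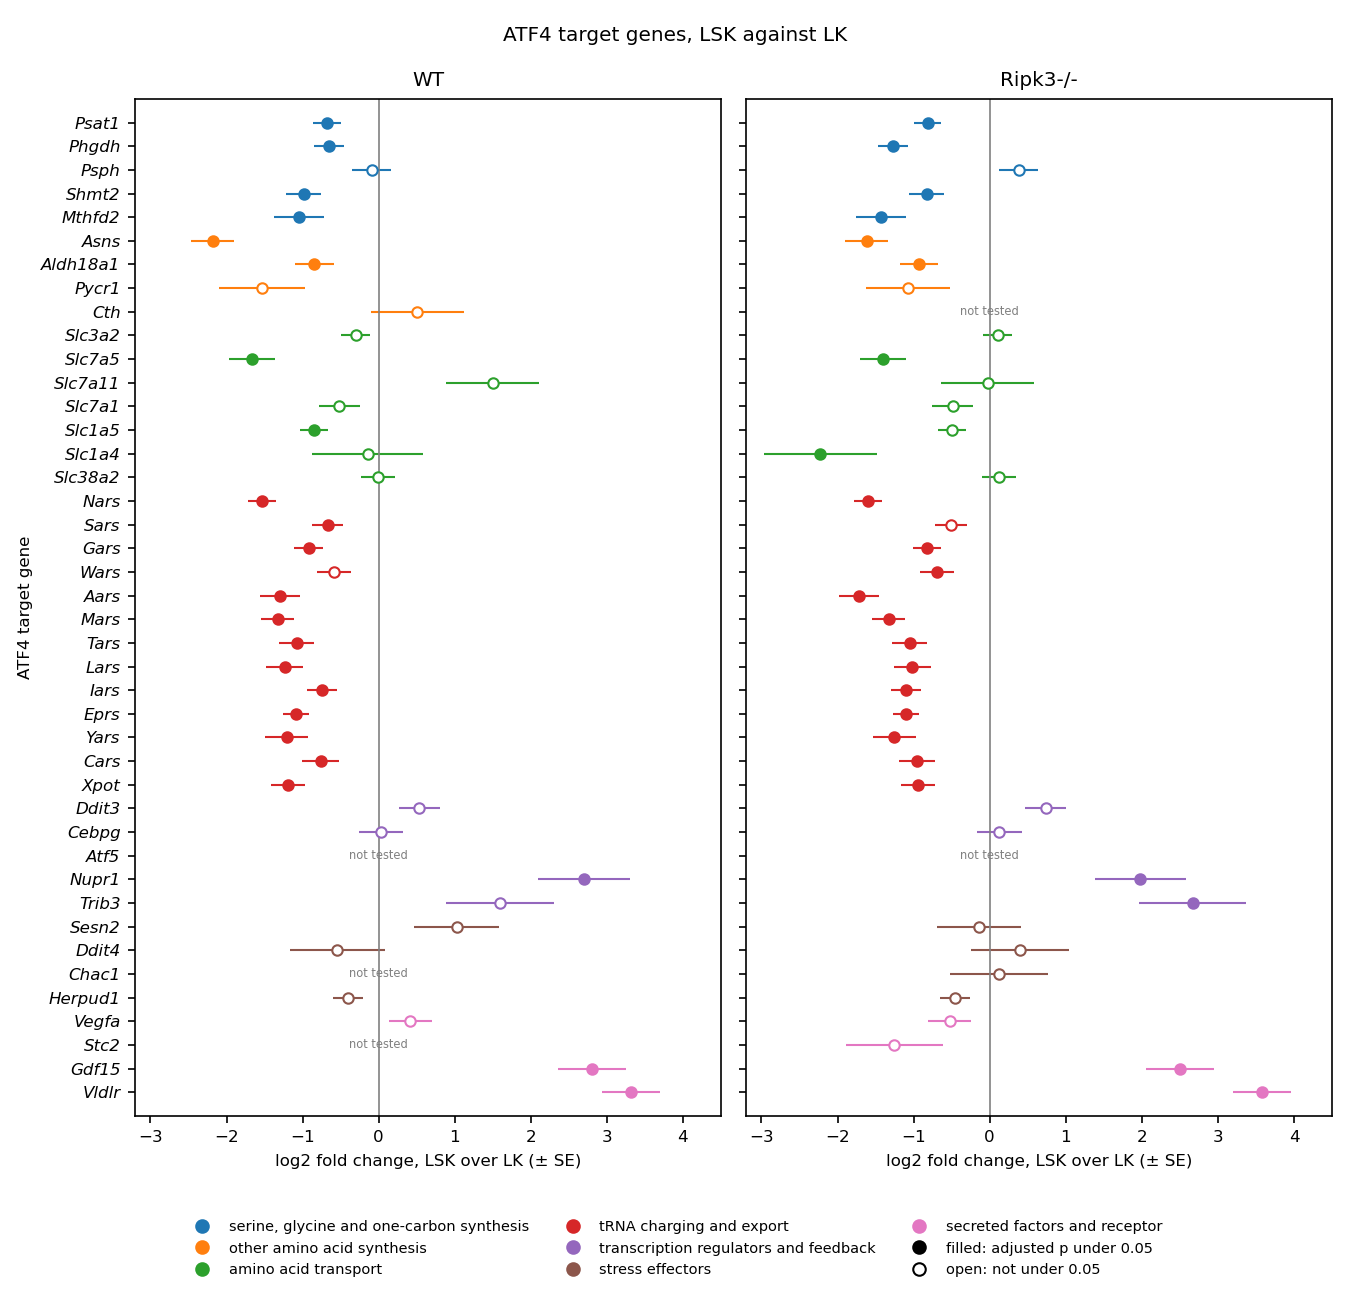
Log2 fold change of each ATF4 target, LSK over LK (x axis, ± SE from limma, 2 libraries per group), in WT (left) and Ripk3-/- mice (right), grouped by role in color. Filled points passed an adjusted p of 0.05. The 13 tRNA charging and export genes all lie left of 0 in both panels, and Vldlr, Gdf15 and Nupr1 lie furthest right in WT.

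Of the 5 serine, glycine and one-carbon genes, 4 were lower in LSK cells in each genotype. Phgdh encodes the enzyme that opens serine synthesis from glycolysis, Psat1 and Psph catalyze the steps that follow, and Shmt2 and Mthfd2 pass the serine carbon into the mitochondrial folate cycle. Phgdh stood at 494 and 552 joint CPM in WT LSK against 834 and 811 in WT LK, and 364 and 225 in Ripk3-/- LSK against 604 and 794 in Ripk3-/- LK. Each LSK library was below both LK libraries of its genotype, with log2 fold changes of -0.65 ± 0.20 (SE) in WT and -1.27 ± 0.19 (SE) in Ripk3-/- cells (adjusted p = 0.019 and 5.0e-05, limma). Mthfd2 stood at 35.5 and 30.01 joint CPM in WT LSK against 66.9 and 70.6 in WT LK, and 27.8 and 12.9 in Ripk3-/- LSK against 51.8 and 54.0 in Ripk3-/- LK, again without overlap. Its log2 fold changes were -1.05 and -1.43, beside -0.98 and -0.83 for Shmt2 and -0.68 and -0.82 for Psat1. Psph did not pass the test in either genotype (log2 fold changes of -0.09 and 0.38). These calls were sensitive to single libraries, as 1 of the 4 WT calls was left without WT LSK replicate 1, WT LK replicate 1 or WT LK replicate 2, 2 were left without WT LSK replicate 2, and 2 of the 4 Ripk3-/- calls without Ripk3-/- LSK replicate 2 or Ripk3-/- LK replicate 2.

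Among the other synthesis genes, Asns, which makes asparagine from aspartate, had the largest difference. Its level was 33.0 and 43.8 joint CPM in WT LSK against 193 and 161 in WT LK, and 45.7 and 23.4 in Ripk3-/- LSK against 98.8 and 107 in Ripk3-/- LK. All LSK libraries were below all LK libraries, and the log2 fold change was -2.18 ± 0.28 (SE) in WT and -1.62 ± 0.28 (SE) in Ripk3-/- cells (adjusted p = 8.3e-06 and 2.3e-04, limma). Aldh18a1 and Pycr1 encode the enzymes at the start and the end of proline synthesis. Aldh18a1 was lower in LSK cells of both genotypes (-0.85 and -0.93 on the log2 scale), although the WT call was lost without WT LSK replicate 2 or either WT LK library, and the Ripk3-/- call without Ripk3-/- LSK replicate 2 or LK replicate 2. Pycr1 did not pass the test (-1.54 and -1.07), and its WT LSK replicates were far apart at 15.2 and 2.18 joint CPM. Cth, which makes cysteine from cystathionine, was low, at 3.66 and 4.09 joint CPM in WT LSK against 2.63 and 2.24 in WT LK, and 0 and 0 in Ripk3-/- LSK against 1.95 and 0.640 in Ripk3-/- LK, and was too low to be tested in Ripk3-/- cells.

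The amino acid carriers were divided. Slc7a5, the large neutral amino acid exchanger, was lower in LSK cells at 27.5 and 19.3 joint CPM in WT LSK against 69.2 and 82.2 in WT LK, and 31.1 and 20.2 in Ripk3-/- LSK against 63.3 and 72.7 in Ripk3-/- LK. The log2 fold change was -1.67 ± 0.31 (SE) in WT and -1.40 ± 0.31 (SE) in Ripk3-/- cells (adjusted p = 4.3e-04 and 0.002, limma), and the latter was lost without Ripk3-/- LSK replicate 2 (-1.02, adjusted p = 0.064, limma). Its partner Slc3a2, the heavy chain that carries Slc7a5 and Slc7a11 to the membrane, did not pass the test in either genotype (-0.3 and 0.1). Slc1a5, a glutamine and neutral amino acid carrier, was lower in WT LSK cells (-0.85, adjusted p = 0.0019, limma) and had a log2 fold change of -0.5 in Ripk3-/- cells (adjusted p = 0.062, limma). Slc1a4, a carrier of alanine, serine and cysteine, stood at 7.32 and 0.546 joint CPM in WT LSK against 2.4 and 3.62 in WT LK, and 0 and 0 in Ripk3-/- LSK against 2.16 and 5.91 in Ripk3-/- LK, and only the Ripk3-/- difference passed the test (-2.22 ± 0.74 (SE), adjusted p = 0.035, limma). In that comparison Slc1a4 reached the mean of at least 1 needed for testing only through the LK libraries, and the call was lost with no filter on low values. It was also lost without either Ripk3-/- LSK library or either WT LK library, and without Ripk3-/- LK replicate 2 the gene was too low to be tested. The cystine importer Slc7a11, the cationic carrier Slc7a1 and the glutamine carrier Slc38a2 did not pass the test, with log2 fold changes from -0.52 to 1.5 in WT and from -0.49 to 0.12 in Ripk3-/- cells.

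The tRNA charging and export genes were lower in LSK cells almost without exception. These are 12 cytosolic aminoacyl-tRNA synthetases, which load amino acids onto tRNA, and Xpot, the nuclear exporter of tRNA. In each genotype 12 of the 13 were lower in LSK cells and 0 higher, and all 13 had LSK libraries below both LK libraries of the same genotype, beside the shares of all genes given above. The median log2 fold change was -1.09 in WT and -1.05 in Ripk3-/- cells. Nars, the asparagine enzyme, stood at 127 and 156 joint CPM in WT LSK against 459 and 367 in WT LK, and 155 and 174 in Ripk3-/- LSK against 488 and 509.9 in Ripk3-/- LK. Its log2 fold change was -1.54 ± 0.18 (SE) in WT and -1.59 ± 0.18 (SE) in Ripk3-/- cells (adjusted p = 2.8e-06 and 1.2e-06, limma). Aars, for alanine, stood at 73.2 and 47.5 joint CPM in WT LSK against 154 and 139 in WT LK, and 39.7 and 31.7 in Ripk3-/- LSK against 102 and 140.2 in Ripk3-/- LK, with log2 fold changes of -1.30 ± 0.26 (SE) and -1.72 ± 0.26 (SE). Mars, for methionine, had log2 fold changes of -1.33 and -1.33, and Eprs, which charges glutamate and proline, -1.09 and -1.1. Yars (tyrosine), Lars (leucine), Xpot, Tars (threonine), Gars (glycine), Cars (cysteine) and Iars (isoleucine) were also lower in both genotypes, between -1.23 and -0.74 in WT and between -1.25 and -0.82 in Ripk3-/- cells. Sars (serine) passed the test in WT alone (-0.67 and -0.51) and Wars (tryptophan) in Ripk3-/- alone (-0.59 and -0.7). The Sars call was lost without WT LSK replicate 2 or either WT LK library, and the Wars call without WT LSK replicate 2, Ripk3-/- LSK replicate 2 or either Ripk3-/- LK library. The count of 12 in Ripk3-/- cells fell to 6 without LSK replicate 2 and to 7 without LK replicate 2, and the count in each genotype fell to 5 when limma was run without a trend in the prior variance.

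Many synthetase genes outside the member list were also lower in LSK cells, beside 14.8% of all genes in WT and 12.2% in Ripk3-/- mice. Of 8 other cytosolic synthetase genes, 7 were lower in each genotype (median log2 fold changes of -0.86 in WT and -0.76 in Ripk3-/-), among them Dars, for aspartate (-1.0 and -0.65), and Hars, for histidine (-1.14 and -0.92). Of 18 mitochondrial synthetase and tRNA-charging genes, 8 were lower in WT and 5 in Ripk3-/- LSK cells (medians -0.90 and -0.53), while 10 and 13 did not pass. Of 19 ER chaperone and unfolded protein response genes, 16 and 17 were lower (medians -1.43 and -1.33), and 0 were higher. Hspa5, the ER chaperone BiP, stood at 1776 and 1599 joint CPM in WT LSK against 4832 and 3662 in WT LK, and 1303 and 1185 in Ripk3-/- LSK against 3578 and 3886 in Ripk3-/- LK, with log2 fold changes of -1.32 ± 0.15 (SE) and -1.58 ± 0.15 (SE). Calr, the calcium-binding chaperone calreticulin, gave -1.7 and -2.03. The lists were not tested against each other. The count of cytosolic synthetases fell to 4 without WT LK replicate 1, and in Ripk3-/- cells to 1 without LK replicate 2 and 2 without LSK replicate 2. The mitochondrial count fell to 2 without WT LSK replicate 2 and 4 without WT LK replicate 2, and in Ripk3-/- cells to 3 or fewer without any one Ripk3-/- library or without WT LK replicate 1.

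**Figure D2:**
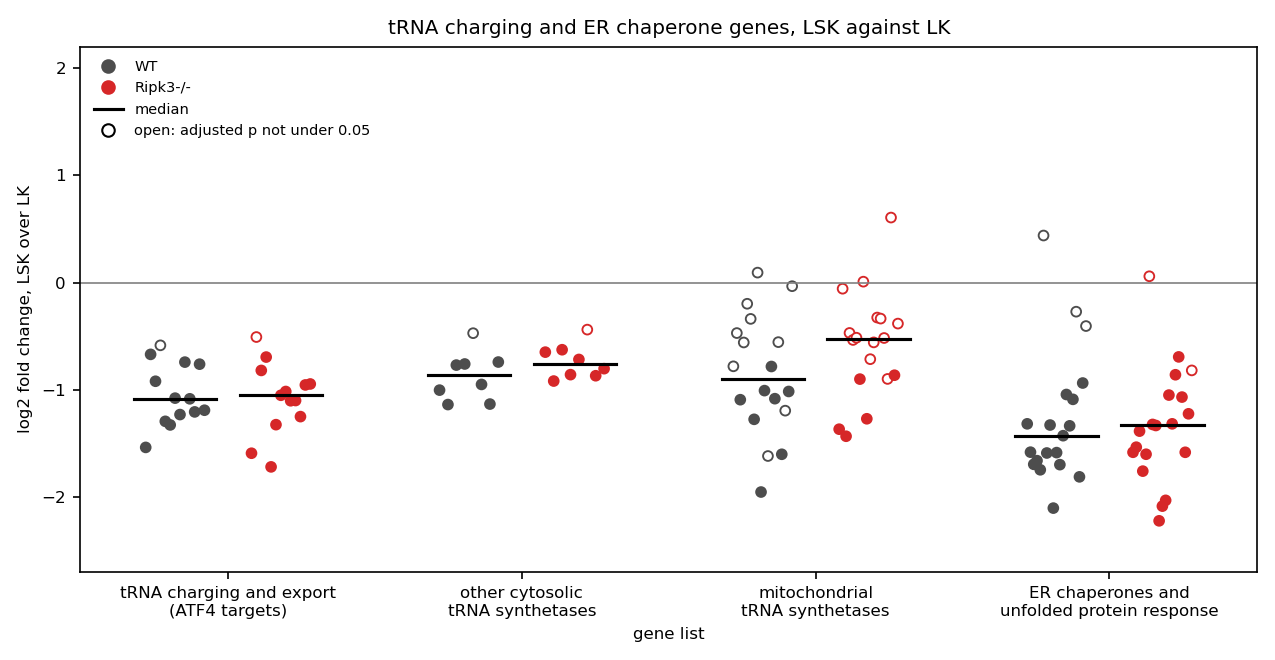
Log2 fold change, LSK over LK (y axis), of each gene in the tRNA charging members, the other cytosolic synthetases, the mitochondrial synthetases and the ER chaperone list (x axis), in WT (gray) and Ripk3-/- mice (red), with medians as bars and filled points for an adjusted p under 0.05. The medians lie between -0.53 and -1.43, and the members have medians of -1.09 and -1.05.

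The members that were higher in LSK cells were a regulator, a secreted cytokine and a receptor. Vldlr, the very low density lipoprotein receptor, stood at 58.4 and 58.3 joint CPM in WT LSK against 4.65 and 5.25 in WT LK, and 73.6 and 75.6 in Ripk3-/- LSK against 6.41 and 4.41 in Ripk3-/- LK. Each LSK library was far above each LK library, and the log2 fold change was 3.32 ± 0.38 (SE) in WT and 3.58 ± 0.38 (SE) in Ripk3-/- cells (adjusted p = 1.8e-06 and 4.0e-07, limma). Gdf15, a stress-induced cytokine of the TGF-β family, stood at 64.8 and 76.7 joint CPM in WT LSK against 11.4 and 7.41 in WT LK, and 22.2 and 33.7 in Ripk3-/- LSK against 2.38 and 6.47 in Ripk3-/- LK. Its log2 fold changes were 2.81 ± 0.45 (SE) and 2.50 ± 0.45 (SE) (adjusted p = 1.1e-04 and 2.9e-04, limma). Nupr1, a small stress-induced chromatin protein, stood at 25.4 and 16.4 joint CPM in WT LSK against 2.63 and 1.98 in WT LK, and 13.2 and 9.93 in Ripk3-/- LSK against 4.39 and 0.854 in Ripk3-/- LK, and was higher in both genotypes (2.70 ± 0.60 (SE) and 1.98 ± 0.60 (SE), adjusted p = 0.0025 and 0.021, limma). Trib3, a pseudokinase that ATF4 induces and that represses ATF4 in turn, passed the test in Ripk3-/- cells alone (2.67 ± 0.70 (SE), adjusted p = 0.0087, limma), while its WT log2 fold change was 1.60 ± 0.71 (SE). Its replicates were uneven, at 13.4 and 3.18 joint CPM in WT LSK and 2.74 and 0.285 in Ripk3-/- LK. In Ripk3-/- cells the Nupr1 call was lost without either LSK library or without LK replicate 2, and the Trib3 call without LSK replicate 1 or LK replicate 2.

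The remaining regulators and stress effectors did not pass the test between LSK and LK cells in either genotype. Ddit3 (CHOP), the death-promoting partner of ATF4, had log2 fold changes of 0.53 ± 0.27 (SE) in WT and 0.74 ± 0.27 (SE) in Ripk3-/- cells, with an adjusted p of 0.14 and 0.054 (limma). Some alternative settings, among them edgeR and another scaling, did call Ddit3 in Ripk3-/- cells. Cebpg, a dimer partner of ATF4, gave 0.04 and 0.13, and Herpud1, an ER-associated degradation factor, -0.4 and -0.46. Sesn2, an inhibitor of mTORC1 under leucine shortage, gave 1.02 and -0.14. Vegfa, the endothelial growth factor, gave 0.41 and -0.53. Ddit4 (REDD1), which also inhibits mTORC1, was at 0.262 to 2.65 joint CPM, and gave -0.54 and 0.4. Atf5, a related bZIP factor, Chac1, a glutathione-degrading enzyme, and Stc2, a secreted glycoprotein, were at 2.77 joint CPM or less in every library. Atf5 was too low to be tested in either genotype, and Chac1 and Stc2 were tested in Ripk3-/- cells alone, where they did not pass (0.13 and -1.26).

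For 7 members, namely Asns, Nars, Aars, Mars, Eprs, Gdf15 and Vldlr, the difference between LSK and LK cells passed the test in both genotypes under each of the 18 alternative settings in WT and the 19 in Ripk3-/- cells, which included leaving out each library in turn. Among the 13 members with an element in the promoter that were tested in WT, 6 were lower, 2 higher and 5 not called. Among the 19 tested members with no match in the bases searched, 9 were lower, 1 (Gdf15) higher and 9 not called. In Ripk3-/- cells 7 of 14 with a match were lower and 3 higher, and 8 of 20 without one were lower and 1 (Gdf15) higher. Members with a match thus moved in both directions, and those without one were lower except for Gdf15 among the members called. Elements elsewhere in a gene were not searched for, so a member without a match here can still hold one.

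Between genotypes far fewer targets differed, and those that did were lower in Ripk3-/- cells. In LSK cells 3 of 41 members tested had an adjusted p under 0.05 from limma (7.32%, beside 2.16% of all 16817 genes), namely Vegfa, Phgdh and Cth. All 3 were lower, as were 1.27% of all genes. Cth reached the mean of at least 1 needed for testing only through the WT libraries. In LK cells 0 of 40 passed (beside 0.473% of 13949 genes, 0.373% lower), with 5 at an unadjusted p under 0.05, and edgeR also called 0. The share of all genes at an unadjusted p under 0.05 was not counted, so such counts, here and below, cannot be set against it. The median log2 fold change of the members, Ripk3-/- over WT, was -0.16 in LSK and -0.14 in LK cells, beside -0.01 and 0.01 for all genes tested, and 26 of 41 and 27 of 40 lay below 0. Over both populations 3 of 39 passed, namely Vegfa, Phgdh and Ddit3, again all lower, beside 1.64% of all 15901 genes (1.04% lower and 0.591% higher). The fit over both populations treats LSK and LK libraries as independent. If they came from the same mice, which cannot be told, its p-values could be too small. The Ripk3-/- libraries lay below both WT libraries for 13 members in LSK and 14 in LK cells, and above both for 6 and 7. The same held for 23.2% (lower) and 21.4% (higher) of all genes in LSK and for 19.9% and 20.1% in LK cells. The smallest two-sided p of an exact permutation test with 2 libraries against 2 is 0.333, and calls on single members therefore rest on the spread that limma pools over genes and groups. Neutrophil granule transcripts moved with genotype in the same libraries, as 7 of 8 markers in LSK and 5 of 8 in LK cells were higher in Ripk3-/-. Their summed signal was 704.5 to 769.5 in WT and 2339 to 2766 in Ripk3-/- LSK libraries, and 774.2 to 780.7 and 1679 to 1683 in LK libraries, and no marker was at 0. The summed signal of 8 stem and multipotent progenitor markers was 2294 to 2493 in WT and 3138 to 3445 in Ripk3-/- LSK libraries (1 of 8 called higher), and that of 8 erythroid genes was 1573 to 1727 in WT and 1159 to 1210 in Ripk3-/- LK libraries (0 called). The part of these cell types in the differences between genotypes was not tested.

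**Figure D3:**
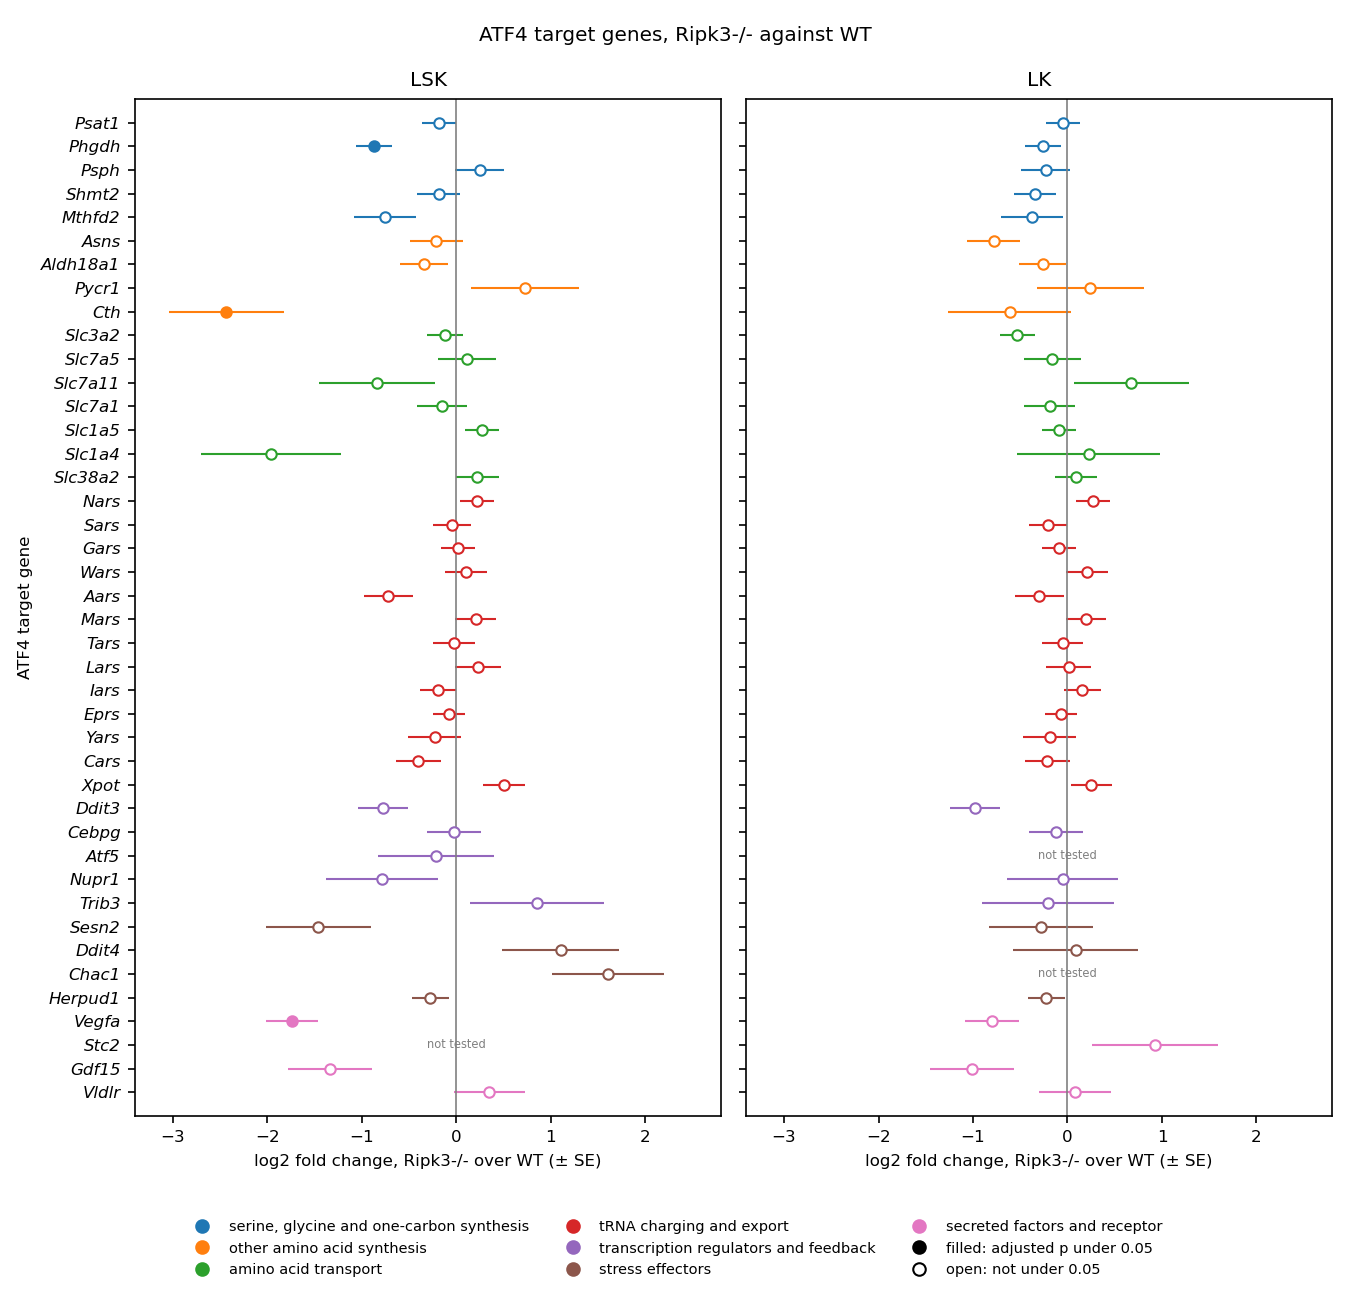
Log2 fold change of each ATF4 target, Ripk3-/- over WT (x axis, ± SE from limma, 2 libraries per group), in LSK (left) and LK cells (right), grouped by role in color. Filled points passed an adjusted p of 0.05, and these are Phgdh, Cth and Vegfa in LSK cells and none in LK cells.

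Vegfa had the largest difference in LSK cells among the tested targets with reads in all 4 LSK libraries. Its signal was 82.3 and 109.6 in WT LSK, 23.9 and 32.2 in Ripk3-/- LSK, 56.9 and 53.1 in WT LK and 30.2 and 32.2 in Ripk3-/- LK. Both Ripk3-/- libraries were below both WT libraries in each population, and in LSK cells the mean fell from 96.0 ± 19.3 (SD, n = 2) to 28.0 ± 5.87 (SD, n = 2). The log2 fold change was -1.74 ± 0.28 (SE) in LSK (adjusted p = 0.0011, limma) and -0.80 ± 0.28 (SE) in LK cells (adjusted p = 0.42, limma). Over both populations it was -1.27 ± 0.20 (SE) (adjusted p = 6.4e-04, limma). The difference between the LSK and LK effects was not called (-0.94 ± 0.40 (SE), adjusted p = 0.43, limma). In LSK cells the call was lost without WT LSK replicate 2 (-1.54, adjusted p = 0.054, limma), and over both populations it stood without any single library.

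Phgdh fell in Ripk3-/- LSK cells, where its replicates were uneven. Its signal was 562 and 629 in WT LSK, 411 and 257 in Ripk3-/- LSK, 732 and 718 in WT LK and 531 and 693 in Ripk3-/- LK. The log2 fold change was -0.87 ± 0.19 (SE) in LSK (adjusted p = 0.018, limma), -0.26 ± 0.19 (SE) in LK (adjusted p = 0.89, limma) and -0.56 ± 0.13 (SE) over both populations (adjusted p = 0.033, limma). In LSK cells the call was lost without either WT LSK library (-0.95 and -0.79) and without Ripk3-/- LSK replicate 2 (-0.53, adjusted p = 0.22, limma), and over both populations without 6 of the 8 libraries in turn, all but Ripk3-/- LSK replicate 1 and Ripk3-/- LK replicate 2. Phgdh shares at least 200 bases at 90% identity or more with 20 pseudogene transcripts, and reads split among them were not resolved here. The other 4 genes of its role did not pass in either population, with log2 fold changes in LSK cells of -0.76 (Mthfd2), -0.19 (Shmt2), -0.18 (Psat1) and 0.25 (Psph, both Ripk3-/- libraries above both WT libraries).

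Cth was detected in WT LSK cells only at a low level and in neither Ripk3-/- LSK library. Its signal was 4.17 and 4.66 in WT LSK, 0 and 0 in Ripk3-/- LSK, 2.31 and 1.98 in WT LK and 1.71 and 0.559 in Ripk3-/- LK. Against the floor of 3 reads per library, Cth was at least 16.5-fold lower in Ripk3-/- than in WT LSK cells, and limma gave -2.44 ± 0.61 (SE) on the log2(signal + 1) scale (adjusted p = 0.039). Because Cth reached the mean needed for testing only through the WT libraries, that call depends on the filter. With no filter on low values Cth did not pass (adjusted p = 0.069, limma), nor with only the 4 LSK libraries or with all 8 libraries scaled together. The call was lost when any one of the 8 libraries was left out (adjusted p from 0.067 to 0.14, limma). Slc1a4 was likewise at 0 in both Ripk3-/- LSK libraries, but at 8.34 and 0.622 in WT LSK (84 and 6 reads). Its WT mean was 16.8-fold above the same floor, but that mean rests mostly on replicate 1. Slc1a4 did not pass (adjusted p = 0.17, limma). Chac1 had the reverse pattern, at 2.25 and 1.86 in the Ripk3-/- LSK libraries against 0 and 0 in WT LSK, at least 6.75-fold higher, and did not pass either (adjusted p = 0.16, limma).

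**Figure D4:**
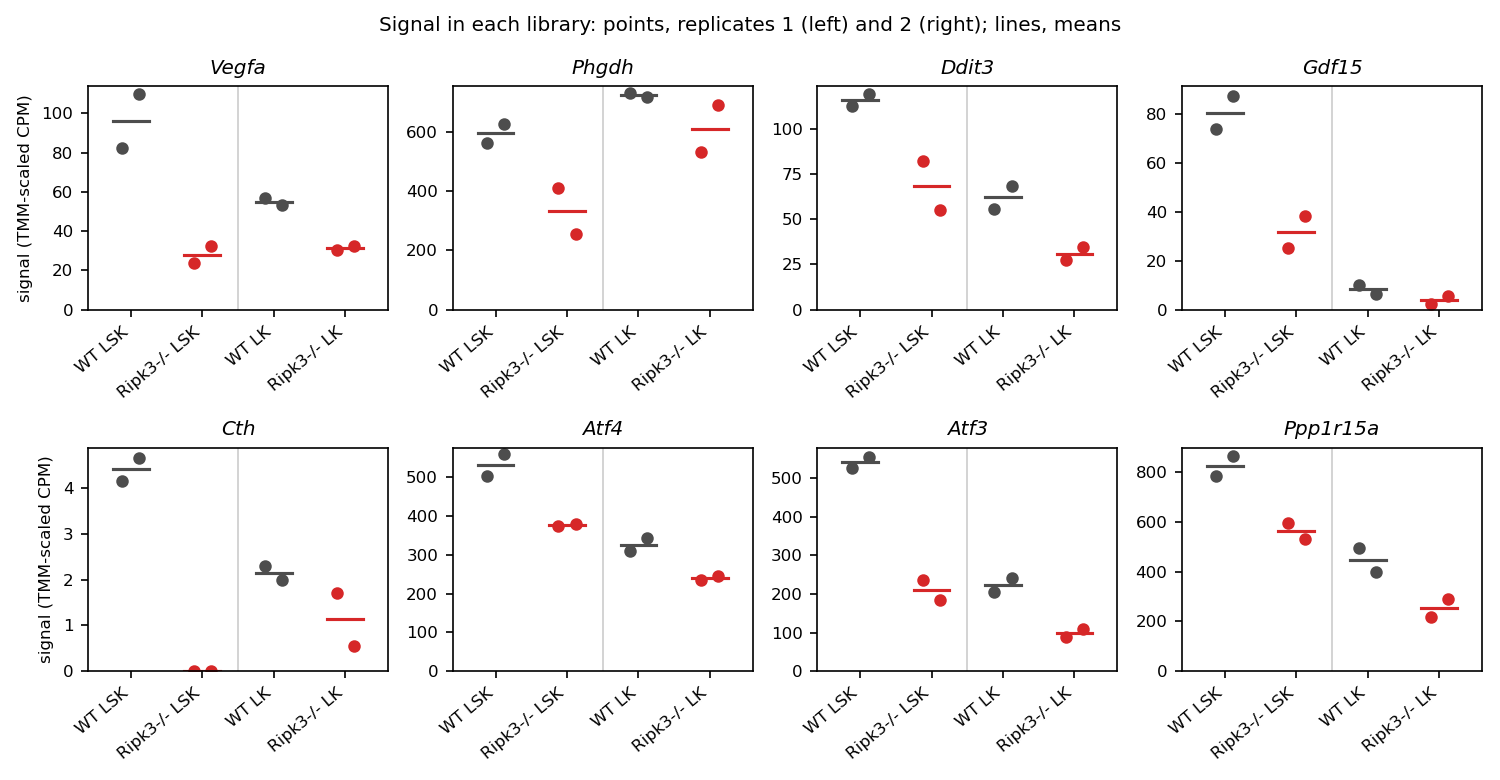
Signal (y axis, TMM-scaled CPM, linear from 0, scaled separately in LSK and LK) of Vegfa, Phgdh, Ddit3, Gdf15, Cth, Atf4, Atf3 and Ppp1r15a in each library (points) with group means (lines), WT in gray and Ripk3-/- in red. The panels show genes called lower in Ripk3-/- cells in some comparison of genotypes, and Gdf15, which was lower but not called in the main fit. The panels were thus picked in part by direction, and in LSK cells both Ripk3-/- points lie below both WT points in every panel. Among 41 members tested in LSK cells this held for 13, with 6 the other way, beside 23.2% and 21.4% of all genes. Vegfa falls in LSK cells from 82.3 and 109.6 to 23.9 and 32.2.

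Ddit3 differed between genotypes over the 2 populations. Its signal was 113 and 119 in WT LSK, 81.9 and 55.2 in Ripk3-/- LSK, 55.8 and 68.1 in WT LK and 27.4 and 34.6 in Ripk3-/- LK. The Ripk3-/- libraries were below the WT libraries in both populations, with log2 fold changes of -0.78 ± 0.26 (SE) in LSK and -0.98 ± 0.26 (SE) in LK cells, neither of which passed alone (adjusted p = 0.13 and 0.15, limma). Over both populations it fell by 0.88 on the log2 scale (adjusted p = 0.015, limma), a call that was lost without replicate 2 of WT LSK, Ripk3-/- LSK or WT LK, or without replicate 1 of Ripk3-/- LK (adjusted p from 0.067 to 0.12, limma). The exons of Ddit3 and of the member Mars overlap on opposite strands, and the strand setting of the counting is not given in the sources used here, so that reads from the overlap could be assigned to either gene. Mars had log2 fold changes of 0.2 in LSK and 0.2 in LK cells. Gdf15 showed the same order, at 73.8 and 87.3 in WT LSK, 25.1 and 38.5 in Ripk3-/- LSK, 9.99 and 6.56 in WT LK and 2.09 and 5.65 in Ripk3-/- LK, without passing the test in LSK (-1.34 ± 0.44 (SE), adjusted p = 0.12), in LK (-1.01 ± 0.45 (SE), adjusted p = 0.69) or over both populations (-1.17 ± 0.31 (SE), adjusted p = 0.062, all limma). Gdf15 did pass in LSK cells when only the 4 LSK libraries were fitted.

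The tRNA charging genes, nearly all of which passed between LSK and LK cells, did not pass between genotypes. Of these 13, 0 passed in LSK, in LK or over both populations, 2, 0 and 2 of them had an unadjusted p under 0.05, and edgeR called none of them. Their log2 fold changes ran from -0.72 (Aars) to 0.5 (Xpot) in LSK and from -0.3 (Aars) to 0.27 (Nars) in LK cells, with medians of -0.02 and -0.05. Aars, the member of this role with the largest difference, had a signal of 83.4 and 54.1 in WT LSK, 44.9 and 36.3 in Ripk3-/- LSK, 135 and 124 in WT LK and 89.5 and 122 in Ripk3-/- LK. Asns had the largest LK difference of the synthesis genes, at 87.0 and 93.1 in the Ripk3-/- libraries against 169 and 143 in WT, without overlap (-0.78 ± 0.28 (SE), adjusted p = 0.44, limma), and it passed when the 4 LK libraries were fitted alone. The other synthesis and transport genes lay between -0.84 (Slc7a11) and 0.73 (Pycr1) in LSK cells, apart from Cth, Slc1a4 and Phgdh above. In LK cells they lay between -0.61 (Cth) and 0.68 (Slc7a11). Slc3a2 signal in LK cells was 361 and 324 in the WT pair against 197 and 285 in the knockout pair, without overlap and with a log2 fold change of -0.53 ± 0.19 (SE) that did not pass (adjusted p = 0.42, limma).

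Among the remaining regulators and effectors, Sesn2 had a signal of 25.9 and 21.9 in WT LSK, 11.7 and 5.38 in Ripk3-/- LSK, 13.2 and 5.5 in WT LK and 4.25 and 11.0 in Ripk3-/- LK, lower in both Ripk3-/- than in both WT libraries of LSK cells and overlapping in LK cells. Its log2 fold change in LSK cells was -1.46 ± 0.55 (SE) and did not pass (adjusted p = 0.17, limma). Nupr1 (-0.79), Trib3 (0.85), Ddit4 (1.1), Vldlr (0.35), Herpud1 (-0.28), Atf5 (-0.21) and Cebpg (-0.02) did not pass in LSK cells either. In LK cells these genes lay between -0.28 (Sesn2) and 0.09 (Ddit4), and Atf5 and Chac1 were too low to be tested there. Stc2 was tested in LK cells alone and did not pass (0.93 ± 0.67 (SE)). The difference between the genotype effects in LSK and LK cells was called for 0 of 39 members by limma (beside 0.358% of 15901 genes) and for 0 by edgeR, and 3 had an unadjusted p under 0.05.

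Atf4 itself and the ATF4-linked genes Atf3 and Ppp1r15a, which are not among the 42, also fell in Ripk3-/- cells. They were the only genes called over both populations in their lists, 2 of 11 core ISR and OMA1 genes (Atf4 and Ppp1r15a) and 1 of 9 other ATF4-responsive genes tested. These shares are 18.2% and 11.1%, beside 1.64% of all genes (1.04% lower). Of the 11 core genes 7 lay above 0, with a median log2 fold change of 0.18, and the median of the 9 was -0.37. Atf4 signal was 505 and 561 in WT LSK, 375 and 380.4 in Ripk3-/- LSK, 309.9 and 343 in WT LK and 234 and 246 in Ripk3-/- LK, without overlap in either population. Its log2 fold change was -0.49 ± 0.16 (SE) in LSK and -0.44 ± 0.16 (SE) in LK cells, and passed over both populations together (-0.47 ± 0.11 (SE), adjusted p = 0.038, limma), but not when any one library was left out (adjusted p from 0.06 to 0.19, limma) or with the replicate number as a block (adjusted p = 0.052, limma). Atf3, a stress-induced repressor of transcription, had a signal of 528 and 557 in WT LSK, 236 and 185 in Ripk3-/- LSK, 205 and 242 in WT LK and 87.3 and 109.5 in Ripk3-/- LK, and fell in LSK (-1.37 ± 0.19 (SE), adjusted p = 2.3e-04, limma) and in LK cells (-1.18 ± 0.19 (SE), adjusted p = 0.0027, limma). The LK call was lost without Ripk3-/- LK replicate 1 (-1.02, adjusted p = 0.18, limma). Ppp1r15a (GADD34), which directs the removal of phosphate from eIF2α, fell over both populations (-0.69 ± 0.12 (SE), adjusted p = 0.0029, limma). In LK cells alone it also passed (-0.82, adjusted p = 0.027, limma), but not without either WT LSK library, WT LK replicate 1 or Ripk3-/- LK replicate 1, nor by edgeR (adjusted p = 0.053). The 4 ISR kinases did not pass in any comparison of genotypes, with log2 fold changes of 0.1, 0.68, 0.49 and -0.65 in LSK cells for Eif2ak1, Eif2ak2, Eif2ak3 and Eif2ak4. Immediate-early genes, a list of 15 chosen after the data were seen, are induced within minutes of a stimulus and are given beside these falls. Of these, 1 of 15 was called lower in Ripk3-/- cells in LSK (6.67%), 3 of 14 in LK (21.4%) and 4 of 15 over both populations (26.7%), and 0 were called higher. Among all genes 1.27%, 0.373% and 1.04% were called lower in the same comparisons. The list as a whole was divided, as 10 of 15 lay above 0 in LSK, 4 of 14 in LK and 6 of 15 over both populations. Its median log2 fold changes were 0.08, -0.08 and -0.01. Nr4a1, an orphan nuclear receptor, was lower in LSK (-1.06, adjusted p = 0.0017, limma) and in LK cells (-1.1, adjusted p = 0.0029, limma). The summed signal of the 15 was 30110 and 26790 in the Ripk3-/- LSK libraries against 26770 and 27930 in WT LSK, and 9023 and 10970 in Ripk3-/- LK against 10970 and 10820 in WT LK. The part of these genes in the results was not tested.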

How the data were processed

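RNA-seq values of 8 libraries, 2 per group, were used as the authors deposited them. The submitters' processing notes name TopHat and mm9, and the counting tool, its strand setting and its annotation are not given in the sources used here. The deposited signal, headed FPKM, was made by the authors from reads per gene divided by 1 TMM-scaled library factor, with LSK and LK cells scaled separately. Dividing by the step of each library gave whole reads (tolerance 0.01) for 100% of values. For LSK against LK these reads were scaled together by TMM (edgeR 4.0.16). No column of the files was left unused for want of a sample.

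Log2(value + 1), which understates the change of low genes, was fitted with limma 3.58.1 (R 4.3.3, empirical Bayes with a trend) as 4 group means over all 8 libraries. Genes with a mean of at least 1 over the libraries of a contrast were tested, and p-values were adjusted over all of them (Benjamini-Hochberg, threshold 0.05). The script was tested on simulated counts that had the same dispersion for every gene. That check of the code does not measure how reliable calls on low or uneven genes are in these data. Named were the members with an adjusted p under 0.05 in any contrast, the member of each role with the highest mean and that with the largest change in each population, and genes of the context lists that passed. Other members are given by range. The members, roles and lists were chosen with earlier results of these data known. The immediate-early list, the lists recomputed under each setting and the exclusion of both LSK libraries of 1 number were added after the data were seen. Alternatives were edgeR's quasi-likelihood test, a pseudocount of 0.1, no filter, a mean of at least 5, another scaling, no trend, replicate blocks, only the 4 libraries of a contrast, removal of sex-linked genes, and each library left out. Reads shared with copies were not resolved: 7 members (Psat1, Phgdh, Shmt2, Slc7a11, Iars, Cars and Xpot) share at least 200 bases at 90% identity or more with a pseudogene transcript, and the exons of 9 (Psph, Shmt2, Aars, Mars, Yars, Cars, Ddit3, Cebpg and Atf5) overlap another gene in GENCODE M21. The windows of some promoter matches are not reported here.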

Additional observations from a re-analysis of the deposited data

How the results depend on the processing

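No member reversed direction among those called. In LSK cells, 3 targets passed between genotypes, against 1 with no filter on low values, 1 with no trend in the prior variance, 0 without replicate 1 of both LSK groups, 0 without replicate 2 of both, and 0 to 2 when 1 library was left out (0 without WT LSK replicate 2, 1 without WT LSK replicate 1 or Ripk3-/- LSK replicate 2). With only the 4 LSK libraries 3 also passed, but Gdf15 took the place of Cth. In LK cells, 0 passed, against 1 (Asns) with only the 4 LK libraries. Over both populations, 3 passed, against 1 with no filter, 0 with no trend, 1 without replicate 2 of both LSK groups, and 1 to 4 with 1 library left out (1 without WT LSK replicate 2, Ripk3-/- LSK replicate 2, WT LK replicate 2 or Ripk3-/- LK replicate 1). Between LSK and LK cells, 23 passed in WT, against 10 with no trend and 16 to 25 with 1 library left out, and 24 in Ripk3-/- cells, against 9 with no trend and 13 to 24 with 1 library left out (13 without Ripk3-/- LSK replicate 2 or LK replicate 2). No called difference between the genotype effects appeared in any setting. edgeR called 4 (adding Slc1a4), 0, 2 (losing Phgdh), 23 and 24 members in these comparisons. The 24 in Ripk3-/- cells were not all the same members, as Wars was lost and Ddit3 added.

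Among all genes, 363 passed between genotypes in LSK cells, against 198 with no filter, 120 with no trend, 237 by edgeR, 195 with only the 4 LSK libraries and 0 without both LSK libraries of either number. In LK cells 66 passed, against 9 with no filter, 3 with no trend and 125 with only the 4 LK libraries. Over both populations 260 passed, against 62 with no filter and 38 with no trend, for the difference of effects 57, against 3 and 2, and between LSK and LK cells 3814 in WT, against 1998 with no trend, and 3072 in Ripk3-/- cells, against 1494 with no trend. The cause of these shifts was not tested.

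Replicate numbers gave no sign of a pairing of the samples, as replicate differences correlated at -0.145 to 0.051 between groups. Whether LSK and LK libraries came from the same mice cannot be told from these values. With the number as a replicate block, 3 (LSK), 0 (LK), 3 (both), 24 (WT) and 24 (Ripk3-/-) members passed, and with a block of genotype and number 23 and 23 between LSK and LK cells. Because one correlation was below -0.1, the Ripk3-/- numbers were also crossed, which gave 26. The WT median of the members was -0.61 under RLE scaling and that of all genes 0.13. With 2 libraries per group, changes of genes near 3 reads could not be resolved.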

Other observations

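Some genes of the core ISR and of the OMA1 axis also differed between LSK and LK cells. Of 11 core ISR and OMA1 genes, 5 were lower and 1 higher in WT LSK cells, and 4 lower and 1 higher in Ripk3-/- LSK cells (limma, adjusted p under 0.05), beside 14.8% of all genes lower and 9.16% higher in WT and 12.2% and 7.95% in Ripk3-/- mice. Eif2s1, which encodes eIF2α, stood at 248 and 263 joint CPM in WT LSK against 495 and 461 in WT LK, and 194 and 196 in Ripk3-/- LSK against 436 and 429 in Ripk3-/- LK, with log2 fold changes of -0.90 ± 0.17 (SE) and -1.15 ± 0.17 (SE). Eif2ak1, the heme-regulated eIF2α kinase, had log2 fold changes of -1.11 and -0.99, and Opa1, a mitochondrial fusion protein that OMA1 cleaves, -1.28 and -0.98. Ppp1r15b, the constitutive partner of the eIF2α phosphatase, gave -0.69 and -1.2, whereas its stress-induced relative Ppp1r15a was higher in LSK cells (0.52 and 0.78). That call was lost in WT without any one of the 4 WT libraries, and in Ripk3-/- cells without LK replicate 1. Oma1 passed in WT alone (-1.09 against -0.24). Atf4 did not pass in either genotype, with log2 fold changes of 0.33 ± 0.16 (SE) and 0.28 ± 0.16 (SE). The count of lower genes fell to 3 without WT LSK replicate 2 or WT LK replicate 1, and in Ripk3-/- cells to 2 without LSK replicate 2.

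Of 10 other ATF4-responsive genes, 9 were tested between LSK and LK cells in WT and 8 in Ripk3-/- mice. In each genotype 2 were called (22.2% and 25%), near the shares of all genes called (23.9% and 20.2%). Atf3 was higher in LSK cells in both genotypes (0.91 and 0.72), and Mthfd1l, which releases formate from the mitochondrial folate cycle, was lower (-1.54 and -1.11). In Ripk3-/- cells both calls were lost without LK replicate 1, and that of Atf3 also without LSK replicate 1. Fgf21, a hormone that ATF4 induces in liver and muscle, was at 0 in all 8 libraries. Of 15 immediate-early genes, 10 in WT and 12 in Ripk3-/- mice were higher in LSK than in LK cells, beside 9.16% and 7.95% of all genes, and their part in the differences of Atf3 and Ppp1r15a was not tested.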
